A study of Mus musculus with 6 samples.

Results

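Stathmins 1 to 4 (Stmn1, Stmn2, Stmn3 and Stmn4), Gap43, Basp1, Dpysl2 and Dpysl3 are 8 genes of the growth cone and of neuronal microtubules, described here in mouse retinal ganglion cells. They were chosen by name, with their counts and CPM per library in the Cre against control comparison already known, and all 8 were found among the 22413 genes of the deposited count table. The samples were bulk RNA of retinal ganglion cells, which send their axons through the optic nerve, from adult mice. In every sample both copies of Tgfbr1, which encodes a receptor kinase for the growth factor TGF-beta, were floxed. The 3 Cre libraries came from Tgfbr1flx/flx;Vglut2Cre/+ mice, which carry 1 copy of Cre recombinase at Vglut2 (Slc17a6), and the 3 control libraries from Tgfbr1flx/flx;Vglut2+/+ mice without Cre. Vglut2 is a gene of some glutamatergic neurons, among them ganglion cells and others, so its Cre is not limited to ganglion cells. Carrying Cre cannot be told apart from losing the receptor in this design. Since the labels do not state how many mice went into a sample, p-values cover the spread between libraries, part of which may be technical.

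Stathmins bind free tubulin dimers and favour the shrinkage of microtubules, and phosphorylation turns that activity down. Stmn1 is cytosolic and found in many cell types, whereas Stmn2 (also called SCG10), Stmn3 (SCLIP) and Stmn4 (RB3) are neuronal and are held to membranes by their first residues. Gap43 and Basp1 encode abundant proteins of the inner face of the growth cone membrane that organise actin, and Gap43 is a classical marker of growing and regenerating axons. Dpysl2 (CRMP2) and Dpysl3 (CRMP4) encode collapsin response mediator proteins, which bind tubulin and act downstream of repulsive guidance cues.

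The 4 stathmin genes descend from a common ancestor, and how alike their messages are decides whether a short read can be placed on one of them. In the first annotated protein-coding transcript of each (GENCODE M21, GRCm38, the assembly called mm10), aligned coding bases were 67.6% to 73.5% identical between pairs. The most alike gap-free stretch of 60 bases is shown, 5′ to 3′ on the coding strand, with capitals at the 41 positions that are identical in all 4 genes. It starts at coding base 241 in Stmn1, 343 in Stmn2, 346 in Stmn3 and 373 in Stmn4.
Stmn1: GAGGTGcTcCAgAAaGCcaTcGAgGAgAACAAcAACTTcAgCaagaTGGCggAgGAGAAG
Stmn2: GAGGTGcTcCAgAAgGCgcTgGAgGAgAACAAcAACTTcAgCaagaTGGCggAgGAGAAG
Stmn3: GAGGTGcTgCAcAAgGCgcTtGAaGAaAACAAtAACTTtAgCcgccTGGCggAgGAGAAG
Stmn4: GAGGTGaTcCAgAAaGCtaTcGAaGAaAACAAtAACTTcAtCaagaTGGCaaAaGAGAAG

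The longest run of identical coding bases was 43 between Stmn1 and Stmn2, and 16 to 21 for every other pair of stathmins. Of all 50-base words in the chosen transcripts of Stmn2, Stmn3, Stmn4, Gap43, Basp1, Dpysl2 and Dpysl3, 0 occurred in an annotated transcript of another gene. For Stmn1, 36.5% of its 1011 words did, nearly all of them in the processed pseudogene Gm11223, so the level of Stmn1 is uncertain. The others were checked over 1 transcript each, which can fall short of the gene. It was 2073 bases for Stmn2 and 2106 for Dpysl3, where all annotated exons joined together cover 5602 and 6608 bases. The sources used here give neither read length nor strand setting. On mm10, Stmn1 lies on chromosome 4 (134468320 to 134473843, plus strand), Stmn2 on chromosome 3 (8509360 to 8561606, plus), Stmn3 on chromosome 2 (181306459 to 181314500, minus) and Stmn4 on chromosome 14 (66344296 to 66361680, plus). Gap43 lies on chromosome 16 (42248442 to 42340651, minus), Basp1 on chromosome 15 (25363277 to 25413764, minus), Dpysl2 on chromosome 14 (66802864 to 66868688, minus) and Dpysl3 on chromosome 18 (43320984 to 43438286, minus). Counts cover whole genes. Exons of 7 of the 8 overlap no other annotated gene, and those of Stmn1 overlap 1 microRNA gene, Gm23634, over 66 bases.

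Libraries held 7486359 to 16372260 counts in the controls and 8098891 to 21126291 in the Cre group, and 4258 to 4863 against 5790 to 7209 genes reached 10 counts. Counts of Tgfbr1 itself were 1, 0 and 1538 for controls 1, 2 and 3 against 46, 0 and 793 for Cre 1, 2 and 3, over the whole gene and not the floxed part, so they do not check the labels. Of 14 ganglion cell markers 13 were found, and their summed level was 610.7 to 4787 CPM (the count scaled to the library total) in the controls and 2793 to 3737 CPM in the Cre libraries. Among the defining markers, Slc17a6 had 0 counts in control 3, Pou4f2 had at most 1 count in any library, and Tubb3 had at most 1 count in 4 of the 6. Not all markers were low in control 3. Rbpms was at 256.7 CPM there, against 4.479 and 65.99 CPM in controls 1 and 2. Pou4f1 was at 85.14 CPM there, against 0 and 265.1 CPM in controls 1 and 2. Control 3 stood apart: it held the 610.7 CPM of ganglion cell markers, and 10 endothelial markers summed to 7566 CPM there against 36.07 to 741.3 CPM in the other libraries. Of the Müller glia markers, 7 of 8 listed were found, and their sum was 6281 CPM in control 3 against 695.2 to 2262 CPM in the other libraries. Vim, an intermediate filament gene that many other cell types also express, gave 5867 CPM of it. Without Vim the sum was 414.2 CPM in control 3, below the 419.4 CPM of control 2 and the 509.2 CPM of Cre 3. The values of control 3 are therefore given for each gene, and fits without it beside the results. In bulk RNA, fewer cells of a type and less RNA per cell cannot be told apart.

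**Figure D1:**
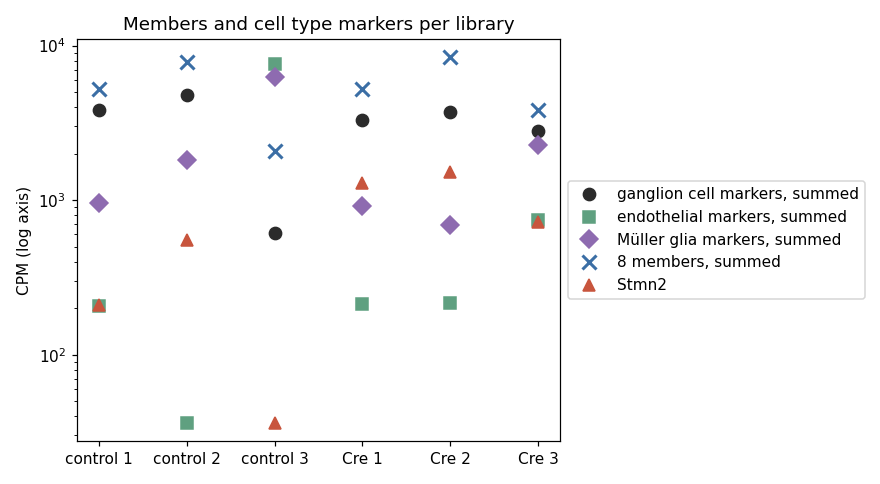
Summed CPM (log axis) of ganglion cell, endothelial and Müller glia markers, of the 8 genes and of Stmn2 in each of the 6 libraries, 1 symbol per library. Control 3 holds the lowest ganglion cell marker sum (610.7 CPM), the highest endothelial sum (7566 CPM) and the lowest Stmn2 level (36.34 CPM).

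Together the 8 genes took 0.527%, 0.782% and 0.207% of all counts in controls 1, 2 and 3 and 0.525%, 0.842% and 0.382% in Cre 1, 2 and 3. The groups overlapped in this sum. At 10 counts or more, all 8 were detected in the Cre libraries and in control 2, and 7 in controls 1 and 3, where Dpysl3 was at 0. All 8 passed the low-count filter of the comparison.

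Stmn2 was the stathmin whose groups lay apart. Controls 1, 2 and 3 held 2427, 4164 and 595 of its counts (209.1, 556.2 and 36.34 CPM), and Cre 1, 2 and 3 held 18108, 32366 and 5880 (1299, 1532 and 726 CPM). Every Cre library lay above every control, with control 2 the nearest control and Cre 3 the nearest Cre library. The means were 1186 ± 414.8 CPM (SD, n = 3) and 267.2 ± 264.8 CPM (n = 3), a ratio of 4.44. Ranked by FPKM, the count scaled to library total and to the gene length implied by the deposited values, Stmn2 stood at places 202, 171 and 298 of all genes in the Cre libraries and at 802, 387 and 2597 in the controls. The edgeR log2 fold change, Cre against control, was 2.37 ± 0.80 (SE), with an adjusted p of 0.681 over all genes tested. Since the gene was listed with this contrast known, these values describe it and support nothing. Stmn2 moved with the ganglion cell marker sum in control 3, where both were lowest. Without that library its log2 fold change was 1.84 ± 0.70 (edgeR adjusted p = 0.426), and across all the other settings tried it ran up to 3.70 (adjusted p from 0.164 to 0.98).

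Divided by the ganglion cell marker sum of the same library, a scale chosen after the data were seen, Stmn2 was at 0.0545, 0.116 and 0.0595 in the controls and 0.391, 0.41 and 0.26 in the Cre libraries. On this scale control 3 lay between the other controls, and the groups stayed apart. The 13 markers in that sum varied among themselves: Isl1 had 4782 counts in control 2 and at most 147 in any other library. The sum also includes Slc17a6, the gene that carries Cre in the Cre group only. It was at 1169, 467.2 and 0 CPM in controls 1, 2 and 3 and 423.6, 660.2 and 259.4 CPM in Cre 1, 2 and 3.

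**Figure D2:**
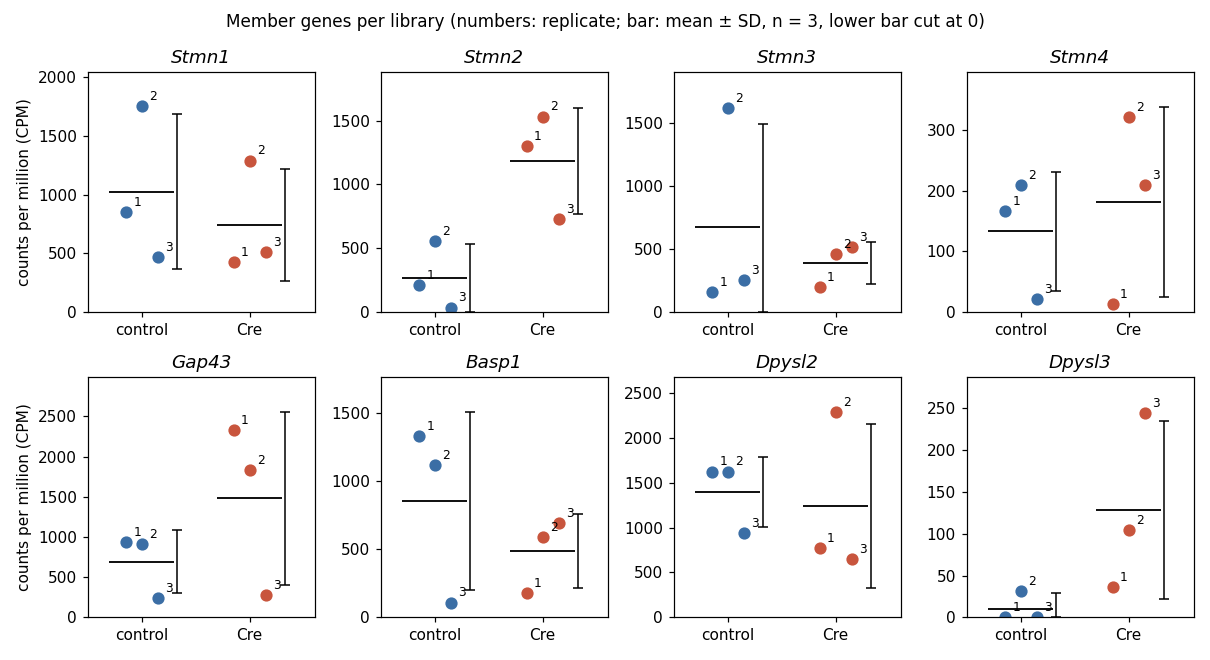
CPM of each of the 8 genes in the 3 control and 3 Cre libraries, 1 point per library with its replicate number, with the mean and SD (n = 3). Stmn2 and Dpysl3 are the genes in which no Cre library lies at or below a control; the other 6 overlap.

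Stmn1, the stathmin of many cell types, was at 855.1, 1753 and 467.2 CPM in controls 1, 2 and 3 and 428.5, 1291 and 514.3 CPM in Cre 1, 2 and 3. The ranges overlapped, with control 2 highest and Cre 1 lowest. Its means were 744.7 ± 475.2 CPM in the Cre group and 1025 ± 659.7 CPM in the controls (n = 3 each), and its log2 fold change was -0.32 ± 0.64 (edgeR adjusted p = 1). Its sign depended on control 2: without that library the value was 0.06, and without control 3 it was -0.68 ± 0.63.

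Stmn3 was at 155.9, 1620 and 251.6 CPM in controls 1, 2 and 3 and 197.9, 458.2 and 512.8 CPM in the Cre libraries. Control 2 alone held 12127 of its counts and lay above all other libraries, while controls 1 and 3 lay among or below the Cre libraries. The log2 fold change was -0.58 ± 0.92 (edgeR adjusted p = 1) and turned to 0.88 without control 2, whereas without control 3 it was -0.95 ± 0.89.

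Counts of Stmn4 were 1935, 1571 and 362 for controls 1 to 3 against 186, 6780 and 1701 for Cre 1 to 3, or 166.7, 209.8 and 22.11 CPM against 13.35, 320.9 and 210 CPM. The lowest library of all, Cre 1, and the highest, Cre 2, were of the same genotype and differed 24-fold in CPM. The fitted value was 0.48 ± 2.33 (edgeR adjusted p = 1), and it was -0.05 without control 3 and -0.23 without Cre 2.

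Stmn2 took a larger part of stathmin expression in every Cre library than in any control. As a share of the 4 genes' FPKM, with the lengths implied by the deposited values, Stmn1 made up 70%, 47.3% and 63.5% in controls 1, 2 and 3 and 31.9%, 46.6% and 33.6% in the Cre libraries. Stmn2 made up 9.53%, 8.35% and 2.75% in the controls and 53.8%, 30.8% and 26.4% in the Cre libraries. The highest control share of Stmn2 was thus 9.53% and the lowest Cre share 26.4%, while for Stmn1 the lowest control share, 47.3%, lay just above the highest Cre share, 46.6%. Stmn3 ranged from 11.9% to 40.8% in the controls and from 13.7% to 31.3% in the Cre group, and Stmn4 held at most 8.64% in any library. These shares depend on the length assigned to each gene. The deposited FPKM imply 1060 bases for Stmn1 and 1904 for Stmn2, where all annotated exons joined together cover 1922 and 5602 bases. With those exon lengths, an alternative chosen after the data were seen, Stmn2 still made up more in every Cre library (13.5% to 36.5%) than in any control (1.34% to 5.28%). Stmn1 then overlapped between groups, at 35.8% to 63% in the controls and 27.9% to 44.3% in the Cre libraries. With the deposited lengths, the ratio of Stmn2 to Stmn1 in FPKM was 0.136, 0.177 and 0.0433 in the controls and 1.69, 0.661 and 0.786 in Cre 1, 2 and 3. A ratio within a library does not depend on its depth or scaling, and gene length multiplies it by the same factor in every library. It shows unequal levels, not which of the genes differed, and it carries the uncertainty of Stmn1. These shares come from the same contrast, and no test was made of them.

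**Figure D3:**
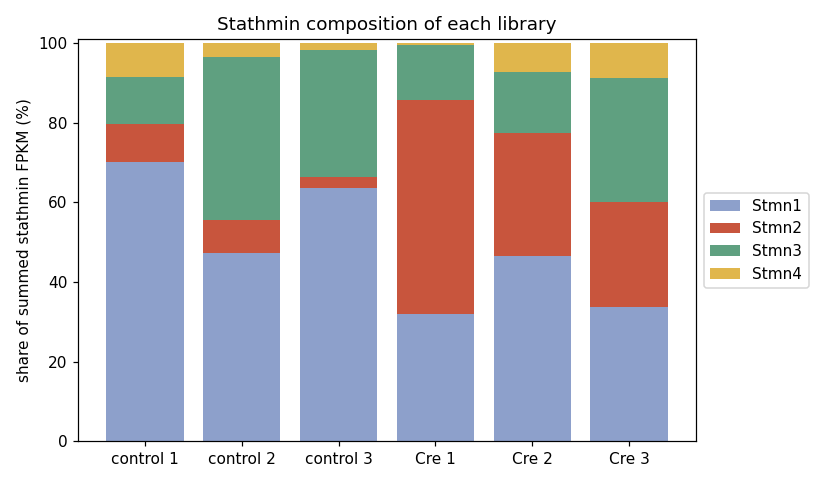
Share of the summed stathmin FPKM (%, deposited lengths) taken by Stmn1, Stmn2, Stmn3 and Stmn4 in each library, as stacked bars that add to the whole. The Stmn2 segment covers 2.75% to 9.53% in the controls and 26.4% to 53.8% in the Cre libraries.

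Gap43, the growth cone protein, was higher in Cre 1 and Cre 2 than in any control, and low in Cre 3. Its counts were 10820, 6823 and 3888 for controls 1 to 3 (932, 911.4 and 237.5 CPM) against 32448, 38816 and 2222 for Cre 1 to 3 (2328, 1837 and 274.4 CPM). Cre 3 lay below controls 1 and 2 and close to control 3, so the groups overlapped. The means were 1480 ± 1073 CPM and 693.6 ± 395.2 CPM (n = 3 each), and the log2 fold change was 1.27 ± 0.71 (edgeR adjusted p = 1). It was 0.63 without Cre 1, 0.81 without control 3, 1.76 without control 1 and 1.74 without Cre 3. Cre 3 was also the library with the lowest ganglion cell marker sum of its group, 2793 CPM. Per ganglion cell marker sum, Gap43 was at 0.701 and 0.492 in Cre 1 and 2 but 0.0982 in Cre 3, under the 0.19 to 0.389 of the controls. The part of cell makeup in this result was not tested.

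Basp1, which like Gap43 is an acylated protein of the growth cone membrane, did not follow it. Its levels were 1328, 1118 and 109.1 CPM in controls 1, 2 and 3 and 175.9, 587.9 and 693.1 CPM in the Cre libraries. Controls 1 and 2 were the highest libraries and control 3 the lowest, so the controls spread over 12.2-fold and spanned all the Cre values. The log2 fold change was -0.80 ± 0.82 (edgeR adjusted p = 1), -0.07 without control 1 and -1.36 without control 3. In Cre 1, where Gap43 was at its highest, Basp1 was near its lowest. The FPKM ratio of Gap43 to Basp1 was 0.993, 1.15 and 3.08 in the controls and 18.7, 4.43 and 0.561 in Cre 1, 2 and 3, so both its extremes were in the Cre group.

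Dpysl2 was the steadiest of the 8 in the controls. It was at 1624, 1624 and 942.9 CPM in controls 1, 2 and 3, and its coefficient of variation there was 28.2%; 3% of tested genes had one as low or lower. In the Cre libraries it was at 773.7, 2290 and 647.6 CPM, with Cre 2 above and Cre 1 and 3 below all controls. The log2 fold change was -0.09 ± 0.53 (edgeR adjusted p = 1), and its sign turned without control 1 (0.17), Cre 1 (0.09) or Cre 3 (0.22). Control 3, where the ganglion cell marker sum was lowest, was also the lowest control for Dpysl2, and without that library the value was -0.35 ± 0.52.

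Dpysl3 was the scarcest. Its counts were 0, 237 and 0 for controls 1 to 3 against 512, 2197 and 1976 for Cre 1 to 3, or 0, 31.66 and 0 CPM against 36.74, 104 and 244 CPM. No Cre library lay at or below a control, though Cre 1 and control 2 were close. A count of 0 allows up to 3 counts, which is 0.258 CPM in control 1 and 0.183 CPM in control 3, counting error only. Over all genes, fewer reached 10 counts in every control (4258 to 4863) than in any Cre library (5790 to 7209). The log2 fold change was 3.84 ± 3.53 (edgeR adjusted p = 1), and without control 2, where the remaining controls are all at 0, the fitted value of 13.75 depends on the prior count and is no bound. Without control 3 the value was 3.28 ± 3.90. Of the other CRMP genes, Crmp1 was found in all libraries at 48.66 to 205.7 CPM, and Dpysl4 and Dpysl5 were too sparse to test. Dpysl4 had counts in control 2 and Cre 2 and Dpysl5 in Cre 2 and Cre 3, with 0 in all other libraries.

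Compared per length, the order of the 8 genes differed between libraries and depended on the lengths used. With the lengths of the deposited FPKM, Stmn1 led in all 3 controls and in Cre 3, at 806.7, 1654, 440.7 and 485.2 FPKM. Gap43 led in Cre 1 and Cre 2, at 1777 and 1403 FPKM. Stmn2 was in place 6, 5 and 6 of 8 in controls 1, 2 and 3 and in place 2, 3 and 3 in Cre 1, 2 and 3. Dpysl3 was last in every library, at up to 41.84 FPKM, and Stmn4 was in place 7 in all libraries except Cre 3, where it was in place 6. With joined exon lengths, Basp1 led in control 1 and Stmn3 in control 2 and Cre 3, while Stmn1 still led in control 3 and Gap43 in Cre 1 and Cre 2. Stmn2 was then in place 7 in all 3 controls and in place 2, 6 and 6 in Cre 1, 2 and 3, and Dpysl3 was again last throughout. By mean deposited FPKM in the controls, the order was Stmn1 (967.2 ± 622.4), Stmn3 (594.9 ± 721), Gap43 (529.5 ± 301.7), Basp1 (459.2 ± 351.3), Dpysl2 (246.3 ± 69.36), Stmn2 (140.3 ± 139.1), Stmn4 (78.86 ± 58.35) and Dpysl3 (1.809 ± 3.134), each with n = 3. Neighbours in that order lay within 1 SD of the wider gene, except Stmn4 and Dpysl3, the latter at 0 in controls 1 and 3. In the Cre libraries the order was Gap43 (1130 ± 818.8), Stmn1 (702.5 ± 448.3), Stmn2 (622.8 ± 217.9), Stmn3 (343 ± 148.1), Basp1 (261.8 ± 147.3), Dpysl2 (218.1 ± 161.2), Stmn4 (107.7 ± 92.45) and Dpysl3 (21.99 ± 18.13). There, the gap between Stmn2 and Stmn3 exceeded the SD of either gene, and other neighbouring pairs overlapped within 1 SD of the wider gene. With joined exon lengths Stmn3 came before Stmn1 in the controls, and Stmn2 came after Stmn3, Dpysl2 and Basp1 in the Cre libraries, so these orders rest on the lengths.

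Spread within a genotype was wide but, for most of the 8, below the median of all tested genes. No comparison with genes of like level was made, so this is not read as a trait of the 8. The median coefficient of variation of CPM over all tested genes was 93.4% in the Cre group and 131% in the controls. In the Cre group all 8 were below that median, from 35% for Stmn2 to 85.9% for Stmn4. In the controls 7 of 8 were below theirs, and Dpysl3, seen in 1 library, was at 173%.

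The comparison over all genes called none of the 8. The quasi-likelihood test of edgeR covered 5727 genes, of which 0 (0%) reached an adjusted p under 0.05 after Benjamini-Hochberg correction. At an unadjusted p under 0.05 there were 281 (4.91%), 257 of them higher in the Cre group (4.49% of those tested). Of the 8 genes, 0 passed the adjusted threshold, and Stmn2 alone passed the unadjusted one, in the higher direction. DESeq2 called 840 genes (11.9% of those it gave an adjusted p) and limma voom 88 (1.54%), and neither called any of the 8. Log2 fold changes were positive for 4 and negative for 4, with a median of 0.20, where 54.2% of tested genes were positive and their median was 0.14. Every Cre library lay above every control for 2 of the 8 genes and for 593 of the 5727 (10.4%), and below for 0 of the 8 and 132 of the 5727 (2.3%). Nothing is read from these shares, because the genes were listed with the contrast known.

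**Figure D4:**
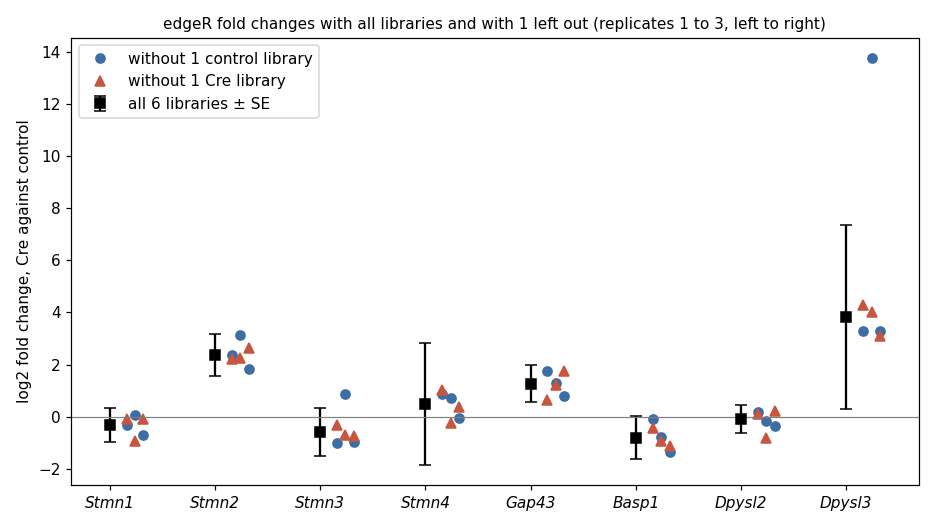
Log2 fold change (Cre against control, edgeR) of each gene with all 6 libraries (squares, ± SE) and with 1 control (circles) or 1 Cre library (triangles) left out, replicates 1 to 3 from left to right. Stmn2 stays between 1.84 and 3.15 and Gap43 between 0.63 and 1.76, whereas Stmn1, Stmn3, Stmn4 and Dpysl2 cross 0; Dpysl3 reaches 13.75 where the remaining controls are all at 0.

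Across the 6 libraries the 8 genes did not rise and fall as 1 group. Stmn2 and Gap43 had a Pearson r of 0.69 in log2(CPM + 1), Stmn1 and Dpysl2 0.85, and Gap43 and Basp1 0.16. Each is a description over 6 libraries that differ in depth, genotype and levels of cell type markers. Other genes followed single members more closely, among 1161 candidates with at least 10 counts in all libraries. Stmn2 was most like Eef1b2, a translation elongation factor subunit (r = 0.993), Rpl36al, a ribosomal protein (0.983), and Ndufb4 of respiratory complex I (0.967). Eef1b2 was at 184.3, 432.3 and 38.36 CPM in the controls and 798.5, 738.9 and 595.6 CPM in the Cre libraries, the same groups apart and the same control lowest. Gap43 was most like C1d (0.995), Rab11a, a GTPase of recycling endosomes (0.964), and Eloc (0.956). Basp1 was most like Ccni (0.966), Psmb1, a proteasome subunit (0.961), and Morf4l1 (0.952), and Stmn3 most like Rab6a, a GTPase of the Golgi (0.957), Snx3 (0.950) and Fdft1 (0.919). Of the 1161 candidates, 21 (1.81%) exceeded 0.9 with Stmn2, 12 with Gap43, 20 with Basp1 and 5 (0.431%) with Stmn3. The genes named are the highest of that many and rest on 6 points.

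Listed genes that act with these 8 lay in both directions. Of 114 listed cytoskeletal and signalling genes, 112 were in the table and 80 were tested; 39 had a positive log2 fold change, the median was -0.01, 0 passed in edgeR and 1 had an unadjusted p under 0.05. DESeq2 called 3 and limma voom 1. Over all genes, 0% passed in edgeR and 4.91% had an unadjusted p under 0.05 there. DESeq2 called 11.9% of those it gave an adjusted p, and limma voom 1.54%, so the calls in these lists are not read as a trait of them. Microtubule-associated proteins were positive in 9 of 22 (median -0.36), severing and tubulin-modifying enzymes in 6 of 9 (0.06) and growth cone actin regulators in 12 of 22 (0.17). Kinases, phosphatases and calmodulins were positive in 9 of 23 (-0.15), and MARCKS proteins and Gap43-like membrane proteins in 2 of 3 (0.01).

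Of the microtubule-associated proteins, the smallest p-values were those of Mapre1, the plus-end protein EB1, at 76.49, 1.469 and 88.38 CPM in the controls and 64.44, 703.9 and 307.6 CPM in the Cre libraries (log2 fold change 2.64 ± 2.03). Macf1, a linker of actin and microtubules, followed at 416.7, 106.3 and 606.5 against 46.07, 48.38 and 214.6 CPM (-1.91 ± 1.63), and Clip1, another plus-end protein, was at 78.04, 12.82 and 0.06108 against 2.942, 0.4733 and 3.457 CPM. All 3 overlapped between groups and had an edgeR adjusted p of 1. Among tubulin-modifying enzymes, Agtpbp1, a deglutamylase, showed 0, 22 and 0 counts in controls 1 to 3 against 7, 510 and 163 in Cre 1 to 3. Atat1, the tubulin acetyltransferase, had 0, 807 and 0 against 0, 4385 and 202 counts, and Ttll1, a polyglutamylase subunit, had 842, 211 and 0 against 544, 222 and 1446 counts. Each of these was at 0 in at least 1 control.

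Growth cone actin regulators held the most abundant genes of the lists. Tmsb4x, which binds actin monomers, was at 15880, 10460 and 9748 CPM in the controls and 15660, 11710 and 15720 CPM in the Cre libraries, overlapping (log2 fold change 0.33 ± 0.26, edgeR adjusted p = 1). Cfl2, a cofilin that severs actin filaments, was at 31.01, 13.62 and 359.1 against 713.6, 682.8 and 311.4 CPM (2.23 ± 1.26), with control 3 above Cre 3. Ssh1, a phosphatase that activates cofilin, showed 0, 0 and 9 counts in controls 1 to 3 against 156, 106 and 703 in Cre 1 to 3, and its groups did not overlap. Groups were also apart for Dbnl, an actin-binding adaptor, and Actr3, a subunit of the Arp2/3 complex, which nucleates branched actin, both named after their values were seen. Dbnl was higher in every Cre library, at 0, 0.935 and 18.69 CPM in the controls and 23.1, 61.16 and 93.96 CPM in the Cre libraries (3.24 ± 3.36). Actr3 was lower in every Cre library, at 341.9, 366.1 and 399.5 against 104.6, 177.8 and 75.81 CPM (-1.51 ± 1.56). None of the 3 passed the test (edgeR adjusted p = 1 for each), and of the 22 tested genes of this list 2 thus lay above and 1 below. Over all 5727 tested genes, 593 (10.4%) lay above and 132 (2.3%) below, so nothing is read from these counts. Of the MARCKS proteins, which share the membrane and actin role of Gap43 and Basp1, Marcks was at 93.28, 656.1 and 280 CPM in the controls and 282.9, 320 and 408.7 CPM in the Cre libraries. Marcksl1 was at 93.46, 119.6 and 5.07 against 21.53, 75.92 and 0 CPM. Pcp4, a calmodulin-binding protein, was at 1171, 917 and 0 against 1029, 700.4 and 173.5 CPM and, like Slc17a6, was at 0 in control 3.

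Among enzymes that phosphorylate these proteins, Prkcb, a protein kinase C isoform of the class that phosphorylates Gap43, showed 1, 0 and 1 counts in controls 1 to 3 against 3513, 131 and 1952 in Cre 1 to 3. Rock2, a kinase of CRMP proteins also named after its values were seen, was the other gene of its list with the groups apart. It was at 29.11, 50.49 and 0.3665 CPM in the controls and 141.4, 185.5 and 60.87 CPM in the Cre libraries. Of the 23 tested genes of this list 2 thus lay above and 0 below, where 10.4% and 2.3% of all tested genes did. Prkcb was the listed gene with an unadjusted p under 0.05 (adjusted p = 0.681 with edgeR, 0.00304 with DESeq2 and 0.132 with limma voom). Gsk3b, a kinase of CRMP proteins, was at 485.4, 1956 and 1909 against 753.6, 1300 and 543.9 CPM (log2 fold change -0.55 ± 0.56), and the phosphatase subunit Ppp2ca at 891.2, 1411 and 146.8 against 343.1, 370.6 and 692.6 CPM (-0.70 ± 0.79). DESeq2 also called Ttl, the tubulin tyrosine ligase, and Mapk8, the kinase JNK1, both named after their values were seen. Ttl had 0 counts in all controls and in Cre 1, and 182 and 1175 in Cre 2 and 3. Mapk8 had 0 in all controls and 1, 74 and 373 in the Cre libraries. Neither passed the low-count filter of edgeR. Over all genes, more reached 10 counts in every Cre library (5790 to 7209) than in any control (4258 to 4863). The part of this in genes at 0 in the controls was not tested. Limma voom called Calm2, a calmodulin, likewise named after the fact, at 8206, 7261 and 6552 CPM in the controls and 10560, 6951 and 1129 CPM in the Cre libraries, where edgeR gave -0.06 ± 0.89.

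**Figure D5:**
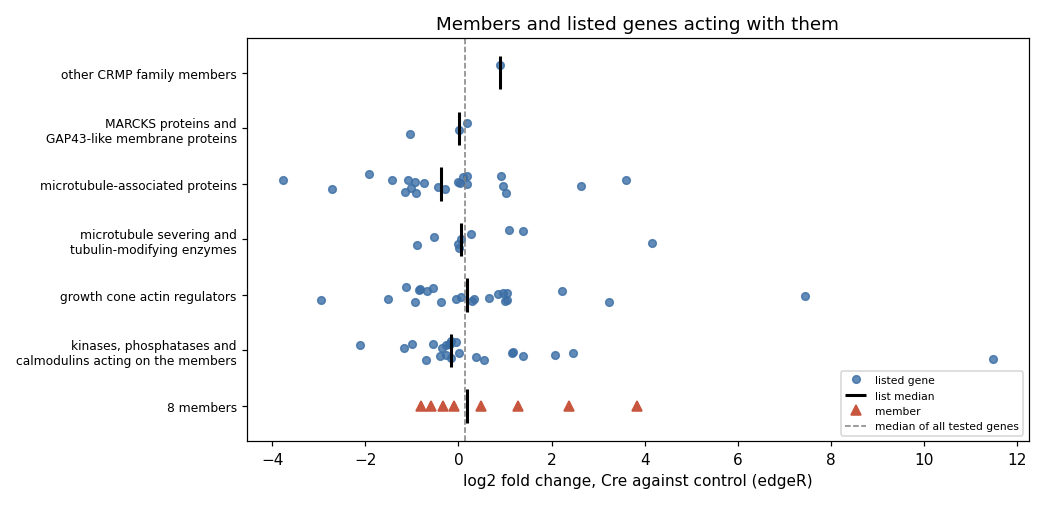
Log2 fold change (Cre against control, edgeR) of each tested gene in the 6 cytoskeletal and signalling lists (circles) and of the 8 genes (triangles), with the median of each list and the median of all tested genes (0.14, dashed). List medians lie on both sides of it, and the point farthest to the right is Prkcb.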

How the data were processed

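Bulk RNA of 6 samples was sequenced, 3 with Cre and 3 without. The labels' protocols name the RNeasy Micro Kit for extraction and, for library construction from 1 ng, the VAHTS Universal V6 kit; cell isolation is not described in the sources used here. The submitters' processing notes list the mm10 build, fastp, HISAT2, HTSeq, DESeq2 and R 3.2.0, with no role stated. The authors deposited 2 tables over the same 22413 genes, raw counts and FPKM. Each deposited FPKM is the count over 1 length per gene and the library's sum (implied lengths varied by at most 6.5e-07 of their value), so counts were the main measure and FPKM served to compare genes. Columns of other samples numbered 0.

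Groups were compared with edgeR 4.0.16 in R 4.3.3 (TMM, filterByExpr, robust quasi-likelihood F test, genotype as the only term, Benjamini-Hochberg threshold 0.05). The SE of an edgeR log2 fold change was back-calculated, as its absolute value over the square root of the F statistic. DESeq2 1.42.0 with its defaults, which left the adjusted p of 15331 genes missing, and limma 3.58.1 were alternatives, as were other scalings and filters, a replicate block and each library left out. Joined exon lengths of GENCODE M21 were a later alternative to the lengths implied by FPKM. CPM use library totals of 7486359 to 21126291 counts. Sequences were aligned with MAFFT 7.526 in Python 3.11.15. Each count test was first run on simulated counts, at a preset spread between libraries and at the spread estimated in these libraries. A pass mark was set for edgeR alone, at the preset spread. That mark does not show how the tests perform at the spread seen here. The calls simulated at that spread are not given here. Members, gene lists and markers were chosen with earlier results of these data known. The rule named the 8 members, Tgfbr1 and Slc17a6, up to 3 tested genes with the smallest p per list, and for 4 members the 3 genes with the highest r, predicted genes left out.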

Additional observations from a re-analysis of the deposited data

How the results depend on the processing

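The count of genes past the adjusted threshold, 0 with edgeR, was also 0 with other scalings, other filters and limma on FPKM. It was 840 with DESeq2 and 88 with limma voom, and ran from 0 to 7 with 1 library left out. None of the 8 genes passed under any of these settings. The count of the 8 with every Cre library above every control was 2 on every scale and 2 to 3 with 1 library left out. Over all tested genes it was 593 of 5727 (10.4%) in CPM with all 6 libraries. That share was not computed for the other settings, and groups separate more easily with 1 library fewer, so the change to 3 is not read. Signs of Stmn2, Gap43 and Dpysl3 stayed positive under all settings that tested them; the filter of 10 counts in all libraries leaves Dpysl3 out. With limma voom, where the median of all genes was 1.58, the sign turned for Stmn1 (0.49), Stmn3 (0.29), Basp1 (0.58) and Dpysl2 (0.61). With 1 library left out, values ran from -0.91 to 0.06 for Stmn1, from -0.99 to 0.88 for Stmn3 (both positive without control 2), from -0.23 to 1.03 for Stmn4 (negative without control 3, at -0.05, or Cre 2) and from -0.80 to 0.22 for Dpysl2 (positive without control 1, Cre 1 or Cre 3, at 0.17, 0.09 and 0.22). The cause was not tested. With joined exon lengths in place of those of the deposited FPKM, the gap between the lowest control and the highest Cre share of Stmn1 went from 0.75 to -8.49 percentage points, because the lengths of the 4 genes change by different factors, and that between the lowest Cre and the highest control share of Stmn2 from 16.9 to 8.24. The median of all genes was 0.14 with TMM, -0.13 with DESeq2's size factors and 1.10 with the replicate block. Same-numbered libraries of the groups did not deviate together (correlations of -0.024, 0.026 and -0.011). This cannot settle whether the numbers pair the samples, since wide spread in single libraries could hide a shared deviation and the labels do not state it. With the replicate block 0 genes passed in edgeR (197 at an unadjusted p under 0.05), and Stmn2 was at 2.90 (adjusted p = 0.352). With 3 libraries a group and wide spread between them, a p that misses the threshold does not show that levels were alike.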
